A study of Homo sapiens with 3 samples.

Results

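Chromosome 10 was followed as a partner of 6 captured regions in capture Hi-C libraries of 3 cell lines. Contacts with another chromosome (trans contacts) were counted in target windows of 50 kb, and the members were all 2711 windows of chromosome 10 among 60669 trans windows of the genome. The chromosome, the position 60.4 Mb and the window that starts at 42.4 Mb were chosen by values of these same counts. They were selected on the contacts of the chromosome 18 region in BT483, which were high up to 60.4 Mb, and on the height of the window at 42.4 Mb in all lines. Those values are therefore given as a description, with no test. The limit was read as windows that end by 60.4 Mb, which left 1208 windows before it and 1503 beyond it. No contact was counted in 87 windows, of which 66 formed 1 unbroken run from 39.1 to 42.4 Mb, here called the gap. No gene was assigned to a window, since positions are of GRCh37 and no annotation of that build was used.

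In a Hi-C experiment, chromatin is fixed, cut and religated, so that DNA ends that lay close together in the nucleus become joined and can be sequenced as a pair. Each chromosome fills a territory of its own, and contacts between chromosomes are rarer and more evenly spread than contacts within one. A trans count rises with how often a contact occurs and also with how many copies of the target the nucleus holds, and these counts cannot tell the 2 apart. Positions are those of the reference genome, so a pair counts as trans when its ends belong to different reference chromosomes.

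BT483 is a line from a primary invasive ductal carcinoma of the breast and was grown with insulin. SUM44 came from an effusion of a breast cancer and was grown without phenol red in 1 nM estradiol. GM06990 is a line of B lymphocytes and served here as the line that both breast lines were set against, so the comparisons with it share its libraries. All 3 lines were fixed for 5 min in 2% formaldehyde and cut with HindIII, but BT483 was lysed with trypsin and the other lines with a dounce, so lysis and line cannot be told apart. The captured regions were 3 breast cancer risk loci, 2q35 (chr2:217609776-218362744), 8q24.21 (chr8:127886760-128470692) and 9q31.2 (chr9:110758376-111099364), and 3 further regions on chromosome 3 (chr3:82599410-82938789), chromosome 16 (chr16:73599933-74183980) and chromosome 18 (chr18:38494518-39252983). The question of the series is what the risk loci contact.

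Each line was 1 sample with 2 replicate libraries (n = 2). Nothing said that the replicates came from separate cultures, so p-values measure the spread between these libraries, which may be technical. The libraries held 1290102 to 3796773 trans contacts, of which chromosome 10 took 4.53% to 4.96%. The median window of chromosome 10, all regions together, held 19 and 61 contacts in replicates 1 and 2 of BT483, 26 and 57 in GM06990, and 25 and 24 in SUM44. Pairs carried no molecular identifiers, so single windows are imprecise, and tests were run in bins of 1 Mb. The level used throughout is the mean number of contacts per window divided by the mean trans window of the same region and library, so that 1 is the genome-wide trans average.

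Over the whole of chromosome 10, BT483 lay below GM06990 from 5 regions and above it from the chromosome 18 region. From the 5 regions its mean levels were 0.873 to 0.925 with a median of 0.911, against 1.02 to 1.08 in GM06990, and in each of the 5 both replicates were below both replicates of GM06990. Scaled to the median trans window instead, the ratio of means stayed below 1 from the 5 regions, but both replicates were below both of GM06990 from 2 of them. From the chromosome 18 region BT483 had 1.30 and 1.39, GM06990 1.06 and 1.08, and SUM44 1.01 and 1.01. In SUM44 the levels were 0.919 from 2q35, 0.986 from 8q24.21, 1.06 from 9q31.2, 1.03 from the chromosome 3 region and 1.13 ± 0.0166 (SD, n = 2) from the chromosome 16 region. SUM44 was thus below both replicates of GM06990 from 4 regions and above both from the chromosome 16 region. The whole-chromosome order of SUM44 and GM06990 turned with the scale: the median ratio over regions was 0.950 as given, 1.13 when scaled to the median trans window and 0.731 when scaled to chromosome 1 alone. These averages hid opposite differences along the chromosome, so it was divided at 60.4 Mb and at a second edge at 96.5 Mb. The second edge was the largest drop found along chromosome 10 in replicate 1 of SUM44 against replicate 1 of GM06990, so the counts on either side of it in SUM44 describe that choice in replicate 1.

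In BT483 the chromosome 18 region stood apart from the others in the first 60.4 Mb of chromosome 10, where the other 5 regions had mean levels of 0.973 to 1.13. Its level there was 1.99 and 2.10 in the replicates, or 2.04 ± 0.0810 (SD, n = 2), where GM06990 had 1.04 and 1.02 and SUM44 had 1.15 and 1.13. Beyond the limit it fell to 0.751 and 0.816, where GM06990 had 1.07 and 1.12 and SUM44 had 0.905 and 0.907. The contacts behind these levels in BT483 were 9196 and 30157 before the limit and 4330 and 14585 beyond it. All of these values are from the contrast that set the limit.

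The level changed within a few windows of the limit. In the last 1 Mb before it the chromosome 18 region had 2.67 and 2.92 in the replicates of BT483. The first window outside, at 60.4 Mb, held 5 and 32 contacts of the chromosome 18 region in the replicates, for 9 and 48 in the window inside and 4 and 4 in the one that followed, and its level was 1.30 and 2.69. The next 19 windows had a mean level of 0.806. In GM06990 and SUM44 the last 1 Mb before the limit stood at 1.27 and 1.32 from the same region.

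**Figure D1:**
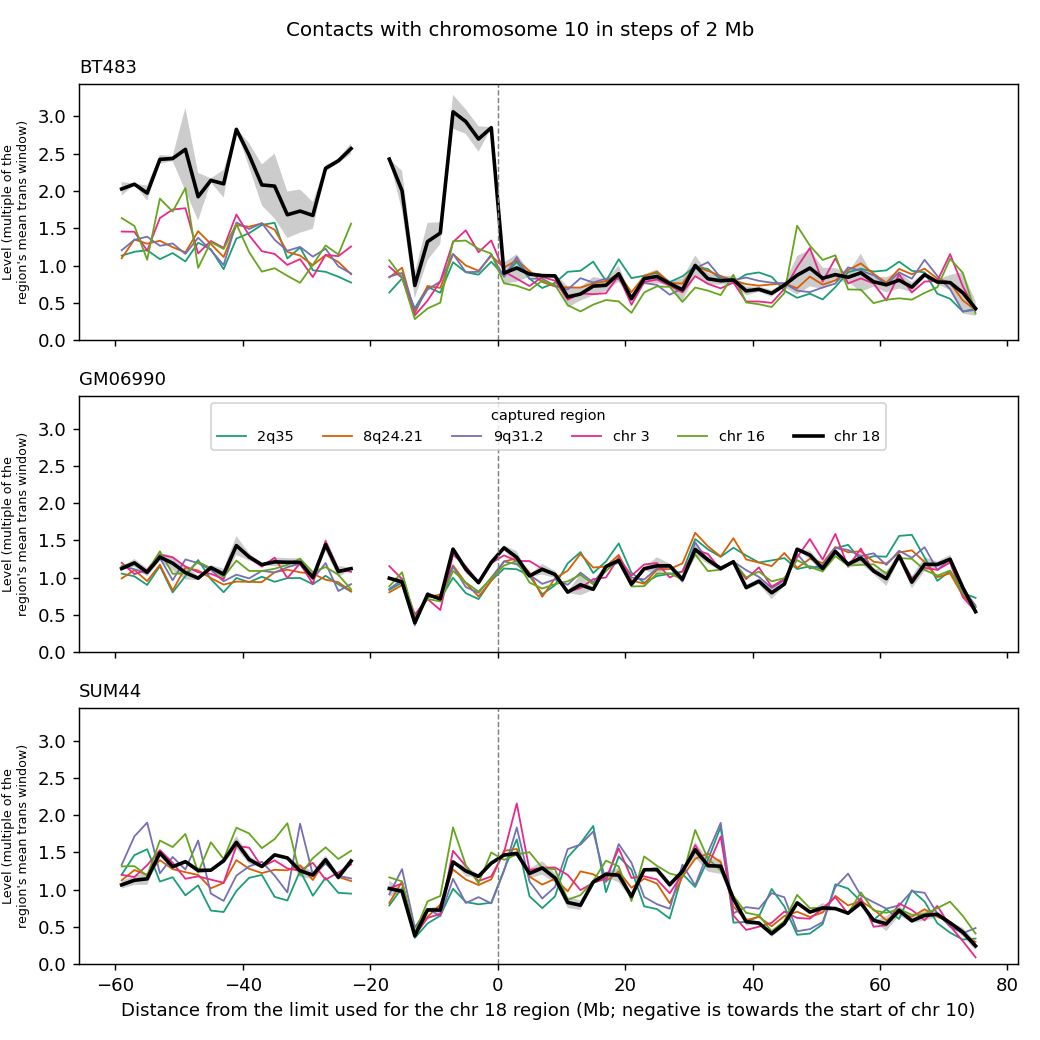
Level of contact with chromosome 10 (multiple of the region's mean trans window) in steps of 2 Mb, by distance in Mb from the limit used for the chromosome 18 region, 1 panel per line and 1 curve per captured region (mean of 2 replicates; the grey band spans the replicates of the chromosome 18 region; the break is the gap). In BT483 the chromosome 18 curve drops at 0 and the other 5 curves also go from higher to lower there, while in SUM44 all 6 curves drop about 36 Mb beyond it.

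Before the limit, the level from the chromosome 18 region in BT483 varied with distance from it. It was 2.85 between 1 and 5 Mb before the limit, 1.62 between 10 and 18 Mb and 2.17 between 50 and 60.4 Mb. Over the mean of the other 5 regions in the same bands the ratio was 2.58, 2.37 and 1.62, so the dip between 10 and 18 Mb belonged to all regions, and the excess was larger near the limit than far from it. It did not fall at every step, with 2.34 in the last 1 Mb, 1.60 between 30 and 40 Mb and 1.75 between 40 and 50 Mb. The corresponding ratios in GM06990 ran from 1.01 to 1.20 over all bands and in SUM44 from 0.900 to 1.25. The raised level was spread over the captured sequence too: the ratio of levels before and beyond the limit was 2.36 to 3.07 in each of 15 captured windows of 50 kb in both replicates of BT483, against 0.853 to 1.13 in GM06990 and 1.12 to 1.58 in SUM44. Captured windows of the other 5 regions in BT483 had 1.01 to 1.80. These windows share a library and are not replicates.

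The other 5 regions also went from higher to lower at the limit in BT483, by less. The ratio of the level before the limit to that beyond it, which needs no scaling to other chromosomes, was 1.24 and 1.13 from 2q35, 1.35 and 1.25 from 8q24.21 and 1.44 and 1.25 from 9q31.2 in the replicates of BT483. It was 1.56 and 1.45 from the chromosome 3 region and 1.64 and 1.55 from the chromosome 16 region. In GM06990 no library of any region passed 0.969, and SUM44 ran from 0.977 to 1.33. BT483 was therefore above both replicates of GM06990 and of SUM44 from each of the 5 regions. When the line ratio to GM06990 was divided into segments with the chromosome 18 region left out, in replicate 1, an end fell at 60.5 Mb in BT483. It also fell there in the settings that kept that region, 1 of which exchanged the replicates. Those settings hold the contacts that set the limit, so nothing is concluded from them.

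**Figure D2:**
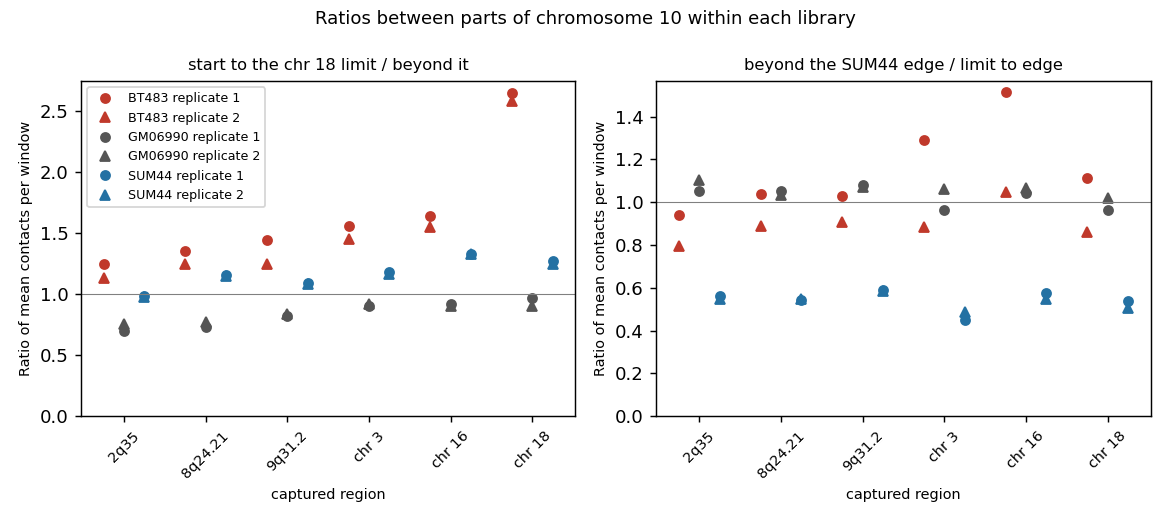
Ratios of levels between stretches of chromosome 10 in each library, by captured region and line (points are replicates). BT483 stands highest in the ratio across the limit, with 2.64 and 2.57 from the chromosome 18 region, and SUM44 lowest in the ratio across the second edge, between 0.451 and 0.589.

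Before the limit the differences from GM06990 were modest outside the chromosome 18 region. The mean levels of the 5 regions were 0.973 to 1.13 in BT483, 0.909 to 1.31 in SUM44 and 0.860 to 1.02 in GM06990, and in both breast lines both replicates were above both of GM06990 from each of the 5. Scaled to chromosome 1 alone this direction turned, with a median ratio to GM06990 over 6 regions of 0.967 in BT483 and 0.863 in SUM44. Between the gap and the limit BT483 and GM06990 were close from the 5 regions, with ratios of 0.992 to 1.07, and the difference lay before the gap, with ratios of 1.13 to 1.25. The highest level before the limit in SUM44, 1.32 and 1.30, was that of the chromosome 16 region, which had 0.968 and 0.973 in GM06990.

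Sums over regions add raw counts, so the mix of regions differed between libraries. The chromosome 16 region gave 342600 of 1290102 trans contacts in replicate 1 of BT483 and 493637 of 3796773 in replicate 2. A difference in a sum, or in a level over all regions, can therefore hold a difference in that mix. In the test of 1 Mb bins (edgeR quasi-likelihood, Benjamini-Hochberg over all bins, threshold 0.05), the sum over regions was read without the chromosome 18 region, since its contacts in BT483 set the limit. So summed, 9 of 58 bins before the limit were higher in BT483 than in GM06990, close to the 17.8% of all bins of the genome. With all 6 regions the count was 28 of 58, where 18.8% of all bins were higher, and nothing is read from it. Among the bins called, the largest rise was at 42 to 43 Mb, next to the gap, with 0.68 ± 0.12 on the log2 scale (SE). That bin holds the window at 42.4 Mb, which was chosen for its height in these counts. Its p-value is therefore not given and nothing is read from its call, which is among the 9. With that window included, the 5 regions had levels there of 1.73 and 1.47 in BT483, 0.953 and 1.03 in GM06990, and 1.26 and 1.30 in SUM44. The bin at 9 to 10 Mb rose by 0.68 ± 0.15 (adjusted p 0.0137), from 0.827 and 0.937 in GM06990 to 1.61 and 1.23 in BT483. The bins at 19 to 20 and 20 to 21 Mb rose by 0.50 and 0.49 (adjusted p 0.0171 and 0.00786). The count of 9 fell to 0 without replicate 1 or 2 of GM06990 (4 and 8 bins at an unadjusted p under 0.05, edgeR) and to 4 without either replicate of SUM44. It became 26 and 30 of 57 without replicate 1 or 2 of BT483, with 6 bins lower each time, and the DESeq2 Wald test on all libraries called 8. In SUM44, with all 6 regions, 7 of 58 bins were higher than in GM06990, against 16.3% of all bins, led by 37 to 38 Mb with 0.52 ± 0.12 (adjusted p 0.0125). The count of 7 fell to 0 without any 1 library of GM06990 or SUM44 (1 to 3 bins unadjusted), and the DESeq2 Wald test on all libraries called 7.

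Between the limit and the second edge at 96.5 Mb, BT483 lay below both other lines from all 6 regions. From 2q35 its replicates had 0.817 and 0.955, where GM06990 had 1.17 and 1.11 and SUM44 had 1.19 and 1.23. From the chromosome 16 region, where the difference was widest, they had 0.527 and 0.698, where GM06990 had 1.03 and 1.05 and SUM44 had 1.28 and 1.28. The ratio to GM06990 was 0.590 to 0.776 over the 6 regions and was below 1 from each region under each of the 4 scalings tried. Replicate 1 of BT483 was lower than replicate 2 from all 6 regions. SUM44 stood at or slightly above GM06990 in this stretch, at ratios of 1.04 to 1.23, but at a median of 0.840 when scaled to chromosome 1 alone.

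**Figure D3:**
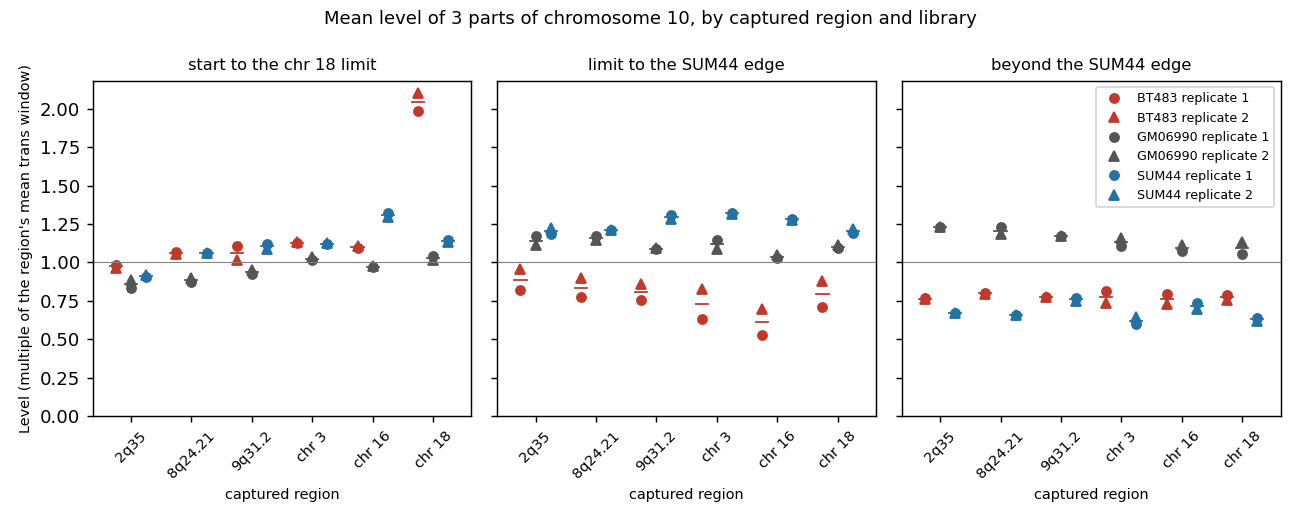
Level of contact (multiple of the region's mean trans window) from each captured region in 3 stretches of chromosome 10, by line; points are the 2 replicates. BT483 has the lowest levels between the limit and the second edge, and both breast lines lie below GM06990 beyond that edge.

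Most single bins of this stretch were lower in BT483. With regions summed, 25 of 35 bins were lower in BT483 than in GM06990 and none was higher, for 26.1% of all bins lower, and the log2 differences had a median of -0.54 with 35 of 35 below 0. Without the chromosome 18 region 22 of 35 were lower, for 24.7% of all bins. Region by region, where 22.7% of all bins were lower, the counts were 13 of 35 from 2q35, 23 from 8q24.21, 13 from 9q31.2, 7 from the chromosome 3 region, 27 from the chromosome 16 region and 11 from the chromosome 18 region, with none higher. Over all regions and both directions 43.4% of the bins of chromosome 10 differed, and 22.9% and 18.99% without replicate 1 or 2 of GM06990. Over the genome 39.0% of all region bins differed between BT483 and GM06990 in either direction, so the 43.4% was near that share. The largest falls were at 72 to 73, 73 to 74 and 80 to 81 Mb, each with -0.73 (adjusted p up to 0.0199). At 80 to 81 Mb BT483 had 0.626 and 0.771, GM06990 1.12 and 1.20, and SUM44 1.21 and 1.21. The count of 25 became 1 without replicate 1 of GM06990, 0 without replicate 2 of it and 12 without either replicate of SUM44, while all 35 differences were below 0 in each of these fits. Where the count was 0, edgeR gave 16 bins an unadjusted p under 0.05, and the DESeq2 Wald test on all libraries called 25.

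Against SUM44 the same stretch was low in BT483 as well. Its ends were set from these counts, the first by the chromosome 18 region in BT483 and the second by replicate 1 of SUM44. Without the chromosome 18 region 27 of 35 bins were lower in BT483 than in SUM44, for 21.2% of all bins. With all 6 regions 29 of 35 were lower, for 22.6% of all bins, and the median log2 difference was -0.66. The count was 5 and 7 without replicate 1 or 2 of SUM44, with 35 of 35 below 0. By region, 17, 26, 21, 17, 35 and 22 of 35 bins were lower from 2q35, 8q24.21, 9q31.2 and the regions of chromosomes 3, 16 and 18, for 17.2% of all bins, and 2 bins were higher, both from 2q35. Over all regions and both directions 35.6% of the bins of chromosome 10 differed, and 16.7% and 17.7% without replicate 1 or 2 of SUM44. Over the genome 41.0% of all region bins differed between BT483 and SUM44, so the 35.6% lay below that share. The bin at 95 to 96 Mb had 0.698 and 0.825 in BT483, 1.23 and 1.19 in GM06990 and 1.54 and 1.60 in SUM44, in which the 3 lines do not overlap. Its log2 difference of -1.04 ± 0.11 (adjusted p 0.00126) held its call under all 18 alternatives. So did those at 74 to 75 Mb, -0.96 ± 0.16 (adjusted p 0.00482), and 75 to 76 Mb, -0.87. Before the limit, without the chromosome 18 region, 3 of 58 bins were higher in BT483 than in SUM44, fewer in share than the 27.9% of all bins, with a median log2 difference of 0.05 and 24 of 58 below 0. These 3 fell to 0 without any 1 library of GM06990 or SUM44 (1 to 3 bins unadjusted, edgeR), became 15 and 17 of 57 without replicate 1 or 2 of BT483, with 11 lower each time, and were 2 by the DESeq2 Wald test on all libraries. With all 6 regions 13 of 58 were higher, for 28.4% of all bins, a count that holds the contacts that set the limit.

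Beyond 96.5 Mb both breast lines lay below GM06990 from all 6 regions, and SUM44 had the lowest mean levels. From 2q35 the levels were 0.668 and 0.670 in SUM44, 0.767 and 0.760 in BT483, and 1.23 and 1.23 in GM06990. From the chromosome 18 region they were 0.640 and 0.619 in SUM44, 0.790 and 0.757 in BT483, and 1.05 and 1.14 in GM06990. The ratios to GM06990 were 0.544 to 0.656 in SUM44 and 0.621 to 0.707 in BT483, and each region was below GM06990 in both lines under each of the 4 scalings, with medians of 0.446 to 0.665 in SUM44 and 0.552 to 0.693 in BT483. BT483 and SUM44 came closest from 9q31.2, with 0.778 and 0.777 against 0.771 and 0.749. Bin by bin, the median log2 difference of BT483 from SUM44 was 0.03 from 9q31.2 and -0.05 from the chromosome 16 region. From the chromosome 16 region 21 of 39 bins were lower in BT483. From the other regions the medians were 0.26 to 0.35.

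The position of the step differed between the breast lines. The ratio of the level beyond 96.5 Mb to that between the limit and 96.5 Mb was 0.451 to 0.589 in the libraries of SUM44, 0.963 to 1.10 in those of GM06990 and 0.796 to 1.51 in those of BT483. No region of SUM44 overlapped either other line. In SUM44 the segment end was at 96.5 Mb in 4 of 5 settings, all of them on replicate 1, which set the edge. It was at 96.75 Mb when the replicates were exchanged, and no segment end of SUM44 lay within 500 kb of 60.5 Mb. In replicate 2, which did not set the ends, the log2 ratio of SUM44 to GM06990 went from 0.43 in the segment from 93.5 to 96.5 Mb to -0.83 in that from 96.5 to 103 Mb, with each of the 6 regions above 0 before the edge and below 0 after it. The segments that followed had -0.51, -0.95, -0.57 and -0.88 to the end of the chromosome, and 5 of 6 regions were below 0 from 103 to 105 Mb, with 9q31.2 at 0.09. Before the edge the other segments of SUM44 lay between -0.20 and 0.21. In BT483 the 9 segments beyond 60.5 Mb all had replicate 2 log2 ratios below 0, from -0.20 to -0.98, from each of the 6 regions. Replicate 1 was not low throughout. At 106.5 to 111.75 Mb it had a level of 1.18 over all regions, where GM06990 had 1.18 and 1.19.

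With regions summed, 36 of 39 bins beyond 96.5 Mb were lower in SUM44 than in GM06990, for 29.5% of all bins, with a median log2 difference of -0.88. The edge was set by replicate 1 of SUM44 against replicate 1 of GM06990, and this test uses both libraries. Counts and calls of SUM44 beyond the edge therefore describe that choice in part, and nothing is concluded from their share. The count was 14 without either replicate of SUM44 and 19 and 18 without replicate 1 or 2 of GM06990, with 39 of 39 below 0 each time. By region 36 of 39 bins were lower from 2q35, 36 from 8q24.21, 20 from 9q31.2, 18 of 38 from the chromosome 3 region, 23 from the chromosome 16 region and 33 from the chromosome 18 region, for 27.6% of all bins, and none was higher. Over the genome 41.2% of all region bins differed between SUM44 and GM06990 in either direction, more than on chromosome 10. Over the whole chromosome 35.8% of region bins differed in either direction, 20.7% and 17.5% without replicate 1 or 2 of GM06990, and 16.1% and 17.7% without replicate 1 or 2 of SUM44. In BT483, 29 of 39 bins were lower than in GM06990, with a median of -0.60, but 2 and 0 without replicate 1 or 2 of GM06990 (26 and 21 unadjusted, and 31 by the DESeq2 Wald test on all libraries), and 19 without either replicate of SUM44. All 39 differences were below 0 in these fits, but over all fits with 1 replicate left out the fewest below 0 were 36. With all libraries, 26.1% of all bins were lower in BT483 than in GM06990. The deepest bin was 130 to 131 Mb, with 0.533 and 0.501 in SUM44, 0.962 and 0.742 in BT483, and 1.09 and 1.30 in GM06990, and its fall of -1.21 ± 0.16 in SUM44 (adjusted p 0.00266) held under all 18 alternatives. The bins at 108 to 109, 109 to 110 and 110 to 111 Mb fell by 1.12, 1.09 and 1.07 on the log2 scale. In BT483 the bin at 125 to 126 Mb fell by 0.73. Between the breast lines 3 of 39 bins were higher in BT483, and 0 without either replicate of SUM44 (1 unadjusted, edgeR; 4 by the DESeq2 Wald test on all libraries). Over the genome 28.4% of all bins were higher in BT483 than in SUM44, so 3 of 39 is a smaller share. The limit and the edge each fell inside a bin, and those bins belong to no stretch. Other library factors moved the median log2 of all bins between SUM44 and GM06990 from -0.11 to -0.01 (TMM) and 0.01 (DESeq2). On chromosome 10 this changed the split from 10 higher and 38 lower to 23 and 33 with TMM and to 25 and 33 with DESeq2 factors, and that between BT483 and SUM44 from 16 higher and 30 lower to 10 and 31 with either. Region by region, the split between SUM44 and GM06990 went from 97 higher and 188 lower to 177 and 128 with TMM and 195 and 119 with DESeq2 factors. Between BT483 and SUM44 it went from 105 higher and 178 lower to 78 and 208, and 73 and 214.

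In 4 stretches the log2 ratio of BT483 to GM06990, taken between libraries of the same replicate number, differed by at least 0.8 between the replicates. Part of that difference is GM06990's own, but its replicates and those of SUM44 lay closer together there than those of BT483. At 9.25 to 11.5 Mb the level over all regions was 2.20 in replicate 1 and 1.15 in replicate 2, beside 1.04 and 1.10 in GM06990 and 1.25 and 1.16 in SUM44. At 89 to 91.25 Mb replicate 1 was the lower, with 0.630 against 1.01. At 106.5 to 111.75 Mb replicate 1 had 1.18, as in GM06990 with 1.18 and 1.19, while replicate 2 had 0.601, near SUM44 with 0.593 and 0.589. At 130 to 135.5 Mb they had 0.807 and 0.499. In each stretch the 6 regions parted in the same sense. At 106.5 to 111.75 Mb, for example, 2q35 had 0.725 and 0.422 and the chromosome 16 region 1.77 and 0.977. At 106.5 to 111.75 Mb replicate 1 lay below both replicates of GM06990 from 2q35, 8q24.21, 9q31.2 and the chromosome 18 region. It lay between them from the chromosome 3 region (1.38 against 1.29 and 1.40) and above both from the chromosome 16 region (1.77 against 1.13 and 1.16). Over all regions the fall of BT483 there was thus seen in replicate 2, and the rise at 9 to 10 Mb was larger in replicate 1. The cause of these differences was not tested.

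**Figure D4:**
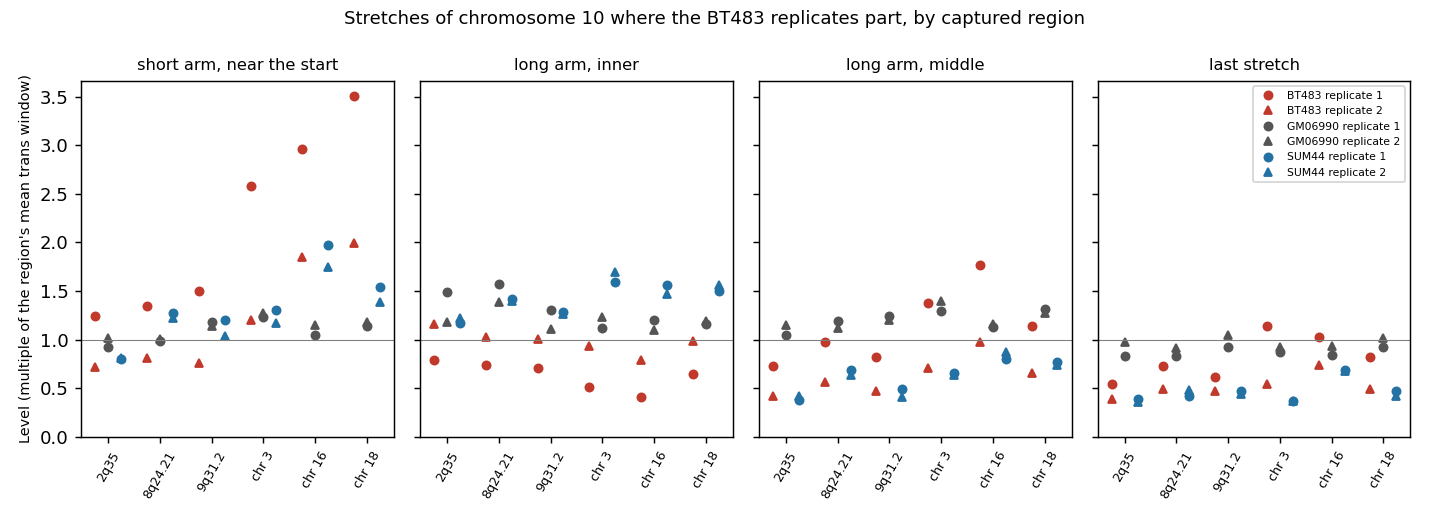
Level (multiple of the region's mean trans window) in the 4 stretches of chromosome 10 where the replicates of BT483 parted, by captured region and line, with 1 point per replicate. In the stretch near the start replicate 1 of BT483 has 2.20 over all regions and replicate 2 has 1.15, while GM06990 and SUM44 show close pairs.

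Differences that belonged to 1 region alone were tested as the line difference of that region less that of the mean of the others, with each library as a block. Between SUM44 and GM06990, 141 of 798 bins of chromosome 10 and region passed, for 19.5% of all such bins. That 17.7% of the bins became 7.39% without replicate 2 of GM06990, and 6.14% and 11.3% without replicate 1 or 2 of SUM44. The chromosome 16 region gave 40 of 133 bins, 2q35 gave 43 and 9q31.2 gave 30, and over the genome the same regions had 26.5%, 34.3% and 25.2%, so these counts were near what these regions showed everywhere. Of the 40, 35 were higher in SUM44, where 15.7% of all bins of the chromosome 16 region were higher. At 26 to 27 Mb the chromosome 16 region had 1.85 and 1.87 in SUM44 and 1.07 and 1.07 in GM06990, while the other regions in SUM44 had 0.889 and 0.920. Its region-specific log2 difference was 1.18 ± 0.16 (adjusted p 8.37e-11). The same region stood out at 20 to 21 Mb, with 2.32 and 2.11 in SUM44 and 1.23 and 1.15 in GM06990 (0.91, adjusted p 9.68e-08), and at 16 to 17 Mb (0.80, adjusted p 2.38e-06). At 16 to 17 Mb it had 2.04 and 2.08 in SUM44, 1.30 and 1.33 in GM06990, and 2.24 and 1.60 in BT483.

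Of the risk loci, 2q35 stood out at 4 to 5 Mb in SUM44, with 2.07 and 2.04 against 1.08 and 1.14 in GM06990. The other regions were also higher in that bin, with 1.48 and 1.47 in SUM44 against 1.26 and 1.27 in GM06990. The region-specific difference there was 0.67 (adjusted p 6.81e-06). At 103 to 104 Mb, inside the low stretch of SUM44, 9q31.2 kept 1.16 and 1.07 where the other regions had 0.649 and 0.716, and in GM06990 it had 0.775 and 0.972. That difference was 1.12 ± 0.22 (adjusted p 1.17e-05). Between BT483 and GM06990 the chromosome 18 region was left out, in a fit added after the results had been seen, and 57 of 133 bins of the chromosome 16 region passed. That share is below the 45.1% of this region over the genome, and 105 of 665 passed over the 5 regions, for 18.6% of all. The leading bin, at 10 to 11 Mb, had 3.28 and 2.03 from the chromosome 16 region in BT483 and lies in a stretch where its replicates part.

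The window that starts at 42.4 Mb, the first past the gap, held the highest count of chromosome 10 from every region in every line, replicates summed. It was chosen for its height. From single regions and libraries it had 18.4 to 33.5 times the mean trans window in BT483, 5.04 to 17.6 in GM06990 and 12.5 to 25.5 in SUM44, so every library of BT483 lay above every library of GM06990 for it. The contacts behind these levels were 538 and 1450 in BT483, 237 and 610 in GM06990 and 433 and 459 in SUM44. The level fell off within 2 windows. The next window had region means of 3.14 to 10.5 in BT483, 3.84 to 8.52 in GM06990 and 4.18 to 8.00 in SUM44, and the lines overlapped there. The third had 0.384 to 2.46, 0.524 to 0.999 and 0.522 to 1.71. Mappability and repeats at the gap were not analysed here, and their part in these levels was not tested.

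**Figure D5:**
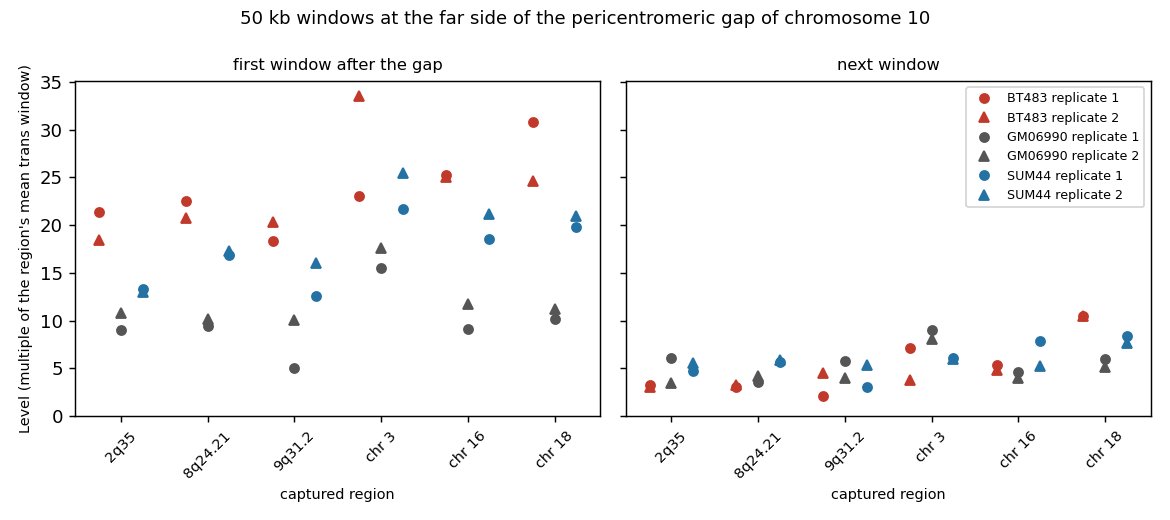
Level (multiple of the region's mean trans window) in the first window of 50 kb past the gap of chromosome 10 (left) and the next one (right), by captured region and line; points are replicates. The first window reaches 33.5 in BT483 and 17.6 in GM06990, and in the next one the lines overlap, with no region mean above 10.5.

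Few other windows rose far above the chromosome. Windows with at least 10 contacts and over 5 times the median window of chromosome 10 for the region and line numbered 12 in BT483, 3 in GM06990 and 23 in SUM44, the window at 42.4 Mb included. As pairs of window and region they were 20, 11 and 33 of 16266, or 0.123%, 0.0676% and 0.203%. Against each region's median trans window over the genome, the count on chromosome 10 was 36 pairs in BT483 (0.221%), 11 in GM06990 (0.0676%) and 53 in SUM44 (0.326%), where all trans windows had 0.447%, 0.0789% and 1.37%. Chromosome 10 thus had smaller shares than the genome in the breast lines, and in GM06990 the share rests on 11 pairs. In SUM44, 18 of the 33 pairs of window and region came from the chromosome 3 region, which had the fewest contacts, and with at least 20 contacts 8 windows were left. At over 10 times the median only the window at 42.4 Mb remained in each line. Apart from the window at 42.4 Mb, with regions summed, the windows at 42.45 and 47.1 Mb were among the 3 highest of every line. The former held 113 and 320 contacts in BT483, 138 and 236 in GM06990 and 156 and 158 in SUM44, and the latter 69 and 339, 108 and 283, and 97 and 115. The third of these was at 22.35 Mb in BT483, 47.05 Mb in GM06990 and 63.5 Mb in SUM44.

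Regions shared much of their profile along chromosome 10, least in BT483. Over 132 bins of 1 Mb, Pearson correlations between the 15 pairs of regions had a median of 0.859 in GM06990, 0.750 in SUM44 and 0.721 in BT483. The lowest pair was 2q35 with the chromosome 16 region in the breast lines (0.227 for BT483, 0.445 for SUM44), and 2q35 with the chromosome 18 region in GM06990, 0.700. The highest pair was the chromosome 16 with the chromosome 18 region in SUM44, 0.951, 8q24.21 with 9q31.2 in BT483, 0.949, and 2q35 with 8q24.21 in GM06990, 0.943. Replicates of 1 region correlated at 0.587 to 0.965. These are descriptions, since the regions of a line share libraries and neighbouring bins are not independent.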

How the data were processed

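Tables that the authors deposited give the count of ligation pairs for each captured window and 50 kb target window, replicates apart. By the submitters' processing notes, CASAVA 1.8 handled the reads and GRCh37 is the build; the aligner is not given in the sources used here. Counts were read without normalisation, trans tables only, and windows overlapping captured regions were left out. The window at 42.4 Mb was left out of the levels of stretches and of the bins for segments. It was kept in the test bin that holds it and in the levels of that bin, so nothing is read from a call of that bin.

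Bins of 1 Mb with a mean count of at least 10 were tested with edgeR 4.0.16 (R 4.3.3), quasi-likelihood F test, all 6 libraries in 1 fit, the library trans total as offset, with DESeq2 1.42.0 as an alternative. Sums over regions and region-specific fits used the 17 chromosomes that hold no captured region. Segments came from 250 kb bins (pseudocount 1), found in replicate 1 and read in replicate 2. The 5 largest changes per direction were named. Tests were tried on simulated data first. The members and lists were chosen with earlier results of these data known. Figures and tables used Python 3.11.15.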

Additional observations from a re-analysis of the deposited data

Results flagged for a closer look

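The 2 breast lines differed from GM06990 in opposite directions, with a call in each comparison and between them, in 1 bin of chromosome 10, at 95 to 96 Mb. There the log2 difference from GM06990 was -0.66 in BT483 and 0.37 in SUM44, and that between the breast lines -1.04 (edgeR quasi-likelihood test, adjusted p 0.00126). Over the genome 69 of 2020 bins, or 3.42%, had such opposite calls, against 0.746% on chromosome 10.

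The stretch between 60.4 and 96.5 Mb held 29 bins, of 35 tested, that differed between BT483 and SUM44, all lower in BT483, for 22.6% of all bins. Its ends were set from these counts.

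Captured regions moved apart within a line over the whole chromosome. In BT483 the chromosome 18 region, at a level of 1.34, was above both replicates of GM06990 while the other 5 regions were below both. In SUM44 the chromosome 16 region, at 1.13, was above both while 4 regions were below both. The difference between regions was not tested at this scale, and the first of these set the choice of chromosome 10.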

How the results depend on the processing

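No named bin changed direction in the alternatives run. Of the named bins' repeats, 336 kept and 24 lost their call in other settings, and 110 kept and 70 lost it with a replicate left out, where the lone library is assumed to vary like the others. Region-specific named bins kept theirs in 65 repeats in other settings. Those of BT483 against GM06990 and against SUM44 were all bins of the chromosome 18 region before the limit. Their contacts set the choice of chromosome 10, so nothing is read from their calls. As a percent of the bins of chromosome 10 called with regions summed, leaving out 1 replicate gave 0 to 88.8 for BT483 against GM06990 (61.9 with all libraries), 10.4 to 63.4 for SUM44 against GM06990 (35.8) and 4.48 to 71.6 for BT483 against SUM44 (34.3). Without the chromosome 18 region, in fits added after the results were seen, it gave 0 to 80.5 (44.8), 3.73 to 70.7 (36.6) and 2.99 to 62.4 (25.4). Region by region it gave 18.99 to 54.4 (43.4), 16.1 to 51.4 (35.8) and 16.7 to 44.8 (35.6), and for region-specific bins 12.9 to 22.1 (23.1), 6.14 to 18.7 (17.7) and 13.03 to 23.4 (23.1), in the same order. With all libraries, the shares over all bins of the genome were 44.9, 45.8 and 51.0 with regions summed. They were 42.4, 43.9 and 49.1 without the chromosome 18 region, and 39.0, 41.2 and 41.0 region by region. For region-specific bins they were 16.5, 19.5 and 15.9. The 61.9 on chromosome 10 holds the contacts that set the limit. With the chromosome 16 region left out of the sum, 98, 64 and 69 of 134 bins of chromosome 10 were called, for 83, 48 and 46 with all regions. On chromosome 10 the DESeq2 Wald test region by region gave 23.9, 20.5 and 23.1. Bins of 5 Mb gave 65.9 region by region for BT483 against GM06990, and 42.9 and 43.5 region-specific for BT483 against GM06990 and SUM44. Bins of 500 kb gave 14.1, 9.15 and 14.2 region-specific. Replicate numbers did not pair the libraries (correlations of deviations -0.05, 0.11 and -0.09), and with the replicate number as a block 80, 46 and 42 bins were called with regions summed and 355, 282 and 283 region by region. The median level over the 6 regions was 0.909 to 0.920 in BT483, 1.05 to 1.05 in GM06990 and 1.02 to 1.02 in SUM44 with 1 replicate. It was 1.02, 1.17 and 1.22 scaled to the median window and 0.800, 1.11 and 0.789 scaled to chromosome 1. Scaled to chromosomes that hold no captured region it was 1.06 in GM06990 and 1.00 in SUM44. With a penalty of 6 there were 10 segments in BT483 and 4 in SUM44, and 4 in SUM44 in 500 kb bins. The segment from 44 to 52.75 Mb in BT483 turned to -0.15 with replicates exchanged, and without the chromosome 18 region it and the 2 before it turned to -0.13, -0.12 and -0.12. That from 46.75 to 51.75 Mb in SUM44 turned to 0.19 and 0.18 in those coarser settings. At 10 times the median 1 window was left in BT483, 1 in GM06990 and 1 in SUM44, and with at least 20 contacts 8 in SUM44. The cause of these changes was not tested. With 19 to 61 contacts in the median window, single windows are imprecise, and none was tested on its own.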
